A study of Mus musculus with 586 samples.

Results

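The lateral ectoderm of the E7.5 mouse embryo was profiled at 2 places on each side of a section, coded position 1 (columns L1 and R1) and position 2 (columns L2 and R2). Members were the libraries of E7.5 embryos 1, 2 and 3 from sections that held all 4 codes. These are 17 sections, namely 4 of embryo 1, 6 of embryo 2 and 7 of embryo 3, with 34 libraries of position 1 and 34 of position 2. The 68 libraries are part of 330 at E7.5 and of 586 in the series. Geo-seq sequences RNA from about 20 cells cut by laser from a cryosection, and the values are FPKM, which is corrected for library size and transcript length. All embryos are late-gastrulation C57BL/6 embryos for which the labels give no treatment, genotype or sex. In the published atlas of these embryos, section numbers run from the distal tip towards the proximal end, L and R are the left and right flanks, and A and P the anterior and posterior sides. The labels do not spell out these letters. The same 17 sections hold 17 libraries of A and 17 of P.

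At this stage the primitive streak, the site where epiblast cells leave to form mesoderm and endoderm, lies on the posterior side, and the ectoderm on the anterior side is turning towards neural fate. WNT and FGF ligands made in and near the streak switch on T, Cdx and Hox genes in neighbouring cells, while secreted WNT antagonists and enzymes that break down retinoic acid are known to shield the anterior side. Ectoderm on the flanks lies between these domains, and its outer rim is known as a source of surface ectoderm and of the neural plate border.

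The embryo was the replicate. In each section the mean of L1 and R1 was compared with the mean of L2 and R2 on the log2(FPKM + 1) scale, and the differences were averaged over the sections of an embryo. Differences below are position 1 minus position 2 with their standard error (SE, n = 3 embryos). Each adjusted p is limma's, corrected by Benjamini and Hochberg's method over all 10027 genes tested, with a threshold of 0.05. Levels are mean FPKM ± SD over 3 embryos, and adding 1 to the FPKM makes the fold of weakly expressed genes look smaller than it is. In libraries of about 20 cells, fewer cells of a type and less RNA per cell cannot be told apart.

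The 68 libraries held 3.62 to 13.9 M reads (1 M = 1000000), estimated from the FPKM worth of 1 read, and 3304 to 10348 genes at 1 FPKM or more. Section 4 of embryo 1 stood apart, with 3304 to 5617 such genes in its 4 lateral libraries against at least 7600 in all others. Medians of position 1 and 2 were 8.26 and 8.61 M reads, 9684 and 9566 genes, and FPKM sums of 618122 and 755214. Embryo 3's columns carry the same codes as its labels. The labels of embryos 1 and 2 use C1, C2, D1 and D2 where the columns use L1, L2, R1 and R2, so these 40 columns were assigned to a position by the digit alone, and P by elimination.

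Ectoderm genes were present in both positions. Sox2, a SOX factor of neural and pluripotent cells, was at 12.4 ± 3.14 FPKM in position 1 and 9.73 ± 3.64 in position 2 (SD, n = 3). The epithelial genes Epcam and Cdh1 stood at 139 ± 4.76 and 27.2 ± 4.71 FPKM in position 1, and at 109 ± 20.4 and 24.5 ± 1.19 in position 2. The visceral endoderm genes Ttr and Afp were at or below 0.229 FPKM, and Sox17, a factor of definitive endoderm, at or below 0.036. Apoa1, an apolipoprotein gene of visceral endoderm, was at 3.17 ± 1.14 FPKM in position 1 and 3.85 ± 1.02 in position 2. The summed level of 19 endoderm genes ran from 453 to 483 FPKM over embryos in position 1, from 325 to 404 in position 2, from 447 to 657 in A and from 284 to 311 in P. Only 5 of the 19 passed the filter of a mean of at least 1 FPKM. The others, among them Ttr, Afp and Sox17, were at or below 0.658 FPKM in both positions. The sum therefore rests on the 5, which include Apoa1 and the epithelial gene Cldn6, and is no measure of endoderm alone. Mesp1, a factor of nascent mesoderm, was at 0.473 ± 0.437 in position 1, 1.91 ± 1.26 in position 2 and 11.0 ± 6.13 in P. Hand1, a gene of lateral and extra-embryonic mesoderm, was at 1.40 ± 1.74 and 4.07 ± 2.29 in positions 1 and 2. The summed level of 19 nascent and paraxial mesoderm genes ran from 12.3 to 20.1 FPKM over embryos in position 1, from 20.7 to 49.9 in position 2 and from 501 to 716 in P. The summed level of 25 streak genes ran from 145 to 330 in position 1, from 476 to 798 in position 2 and from 1980 to 2835 in P, and that of 9 maternal blood and decidua genes from 10.3 to 31.7 in position 1 and from 27.9 to 139 in position 2. The part of endoderm, mesoderm, blood and decidua transcripts in the results below was not tested.

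In embryos 1 to 3, position 1 lay nearer A than P, and position 2 lay further towards P than position 1. Over the genes tested, position 1 correlated with A at a mean r of 0.896, 0.951 and 0.955 in embryos 1, 2 and 3, and with P at 0.868, 0.930 and 0.929. Its r with A was above its r with P in 17 of 17 sections. Position 2 was close to even, at 0.881, 0.939 and 0.944 with A and 0.877, 0.944 and 0.947 with P, and P was ahead in 10 of 17 sections. The lead of A over P was larger in position 1 than in position 2 by 0.0267 ± 0.00229 (SD, n = 3), in 3 of 3 embryos and in 16 of 17 sections. The exception was section 4 of embryo 1, at -0.00178. An exact two-sided sign-flip test over 3 embryos gave p = 0.25, the smallest value it can give. The points of each r are genes, which are no replicates.

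A second scale came from embryos 4, 5 and 6, which share no library with embryos 1 to 3. There, 264 genes were higher and 77 lower in P than in A, and each position of embryos 1 to 3 was placed on that axis, with A of its own section at 0% and P at 100%. Position 1 lay at 7.12, 16.6 and 8.07% in the 3 embryos, a mean of 10.6 ± 5.2% (SD, n = 3). Position 2 lay at 34.1, 45.3 and 45.4%, a mean of 41.6 ± 6.48%. So the step from position 1 to position 2 was 27.0, 28.7 and 37.3% of the way from A to P, and position 2 was the further towards P in 17 of 17 sections. On this scale both positions were nearer A than P in 3 of 3 embryos. Of the 264 genes higher in P, 160 (60.6%) were lower in position 1 than in position 2 in 3 of 3 embryos, against 26.2% of all genes tested. Among the 77 lower in P, 48 (62.3%) were higher in position 1 in 3 of 3 embryos, against 14.8% of all genes.

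**Figure D1:**
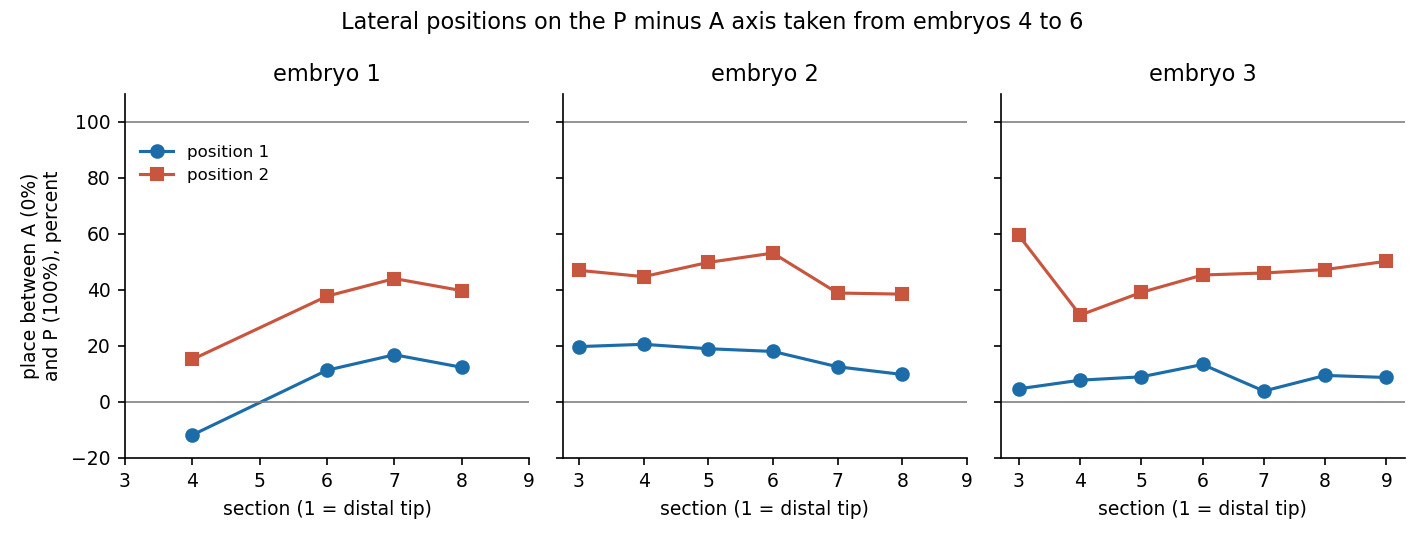
Place of position 1 (circles) and position 2 (squares) between A (0%) and P (100%) in each section of embryos 1, 2 and 3, on the P minus A axis of embryos 4 to 6; the y axis is in percent and the x axis is the section number. Position 2 lies above position 1 in all 17 sections, and section 4 of embryo 1 is the lowest for both.

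Between the positions, 45 of 10027 genes differed (0.449%). Of these, 33 were lower in position 1, that is higher in position 2 (0.329%), and 12 were higher in position 1 (0.12%). All 45 had the same sign in 3 of 3 embryos, and 25 had it in each of the 17 sections. They were called on these same values, so these counts are a description and no further support. Of all genes tested, 26.2% were lower and 14.8% higher in position 1 in 3 of 3 embryos. Many calls sit close to the threshold: 16 of the 45 share the largest adjusted p, 0.0486. The median over all genes was -0.04, and with libraries rescaled to an equal sum, which moved that median to 0.10, the split was 21 higher (48.8%) and 22 lower, against 26.7% higher without rescaling. Under that rescaling 33 of the 45 still passed, and Apln, Axin2, Ccnd2, Dusp6, Fgf17, Gm10664, Lxn, Psors1c2, Rai14, Rxrg, S100a11 and Tcea3 did not. Without section 4 of embryo 1, 91 genes differed (0.908%), 34 higher and 57 lower, and 44 of the 45 were among them. The 45th, Gm10664, a predicted gene, then had adjusted p = 0.077. Without embryo 2, 28 genes differed, and 22 of the 45 were among them.

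T encodes brachyury, the T-box factor of the streak and of nascent mesoderm. In the 34 libraries of position 1 it ran from 0 to 12.1 FPKM with a median of 0.809, and in the 34 of position 2 from 0.349 to 227 with a median of 21.2. Single libraries therefore overlapped at the low end, while the embryo means did not, at 0.635, 1.86 and 1.23 FPKM in position 1 and 24.6, 15.5 and 45.7 in position 2. The difference was -3.32 ± 0.30 (adjusted p = 0.0195), with position 1 lower in 17 of 17 sections. A was at 3.47 ± 2.29 FPKM, and position 1 did not pass against it (position 1 minus A -0.88, adjusted p = 0.0886; 0.0137 without section 4 of embryo 1). P was at 517 ± 142 FPKM, so position 2 was higher than A by 2.44 (adjusted p = 0.00905) and lower than P by 4.75 on the log2 scale (position 2 minus P -4.75, adjusted p = 0.00135). These contrasts share the position libraries and are given side by side.

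Sp5, a zinc-finger factor that WNT signalling switches on directly, ran from 0.0609 to 10.4 FPKM in position 1 (median 1.46) and from 0.116 to 28.7 in position 2 (median 11.1). Its difference was -1.99 ± 0.16 (adjusted p = 0.0151). The 250 bases upstream of the starts of T and Sp5 are shown because both are textbook WNT targets and were higher in position 2. Capitals mark CTTTGA or its reverse complement TCAAAG, core letters bound by TCF/LEF, the DNA-binding partners of beta-catenin. They are given 5′ to 3′ on the + strand in RefSeq's GRCm38.p6, T at chr17:8434173-8434422 and Sp5 at chr2:70474673-70474922.
T: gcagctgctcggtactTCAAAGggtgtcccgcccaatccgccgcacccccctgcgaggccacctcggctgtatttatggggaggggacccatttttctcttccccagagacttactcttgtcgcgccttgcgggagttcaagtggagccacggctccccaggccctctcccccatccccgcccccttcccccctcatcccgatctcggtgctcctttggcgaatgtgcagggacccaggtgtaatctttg
Sp5: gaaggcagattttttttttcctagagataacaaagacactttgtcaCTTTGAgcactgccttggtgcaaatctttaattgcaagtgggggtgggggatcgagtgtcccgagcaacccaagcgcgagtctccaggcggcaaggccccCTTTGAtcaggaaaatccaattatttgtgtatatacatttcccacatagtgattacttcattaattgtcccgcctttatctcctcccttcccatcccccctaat
T holds 1 match, starting 234 bases upstream, and Sp5 holds 2, at 204 and 104 bases. The letters occur on either strand in 13.8% of all 32851 RefSeq windows of this length. Of the 31 called genes with a window, 6 hold them in at least 1 window, namely Pid1, S100a11, Slc6a13, Sp5, Syt11 and T. Among these, Slc6a13 and Syt11 were higher in position 1. The share counts windows and the 6 counts genes, which may have several windows, so they are unlike measures. A match of letters is a description and not a site.

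Caudal-type and Hox genes, which set position along the trunk, were among the genes with the largest differences. Cdx1 had 0 to 139 FPKM in position 1 with a median of 0.542, and 2.41 to 392 in position 2 with a median of 83.3. Its difference was -4.72 ± 0.26 (adjusted p = 0.00534). Embryo 2 was high in both positions, at 27.6 and 209 FPKM, against 0.615 and 106 in embryo 1 and 1.52 and 48.1 in embryo 3. Cdx2, which the posterior body and the trophoblast need, was at or near 0 in position 1, with a median of 0 and a highest library of 3.23 FPKM. In position 2 it ran from 0.65 to 20.4 with a median of 5.71, and the difference was -2.56 ± 0.14 (adjusted p = 0.00534). Cdx4 did not pass the filter, at 0.019 FPKM in position 1, 0.569 in position 2 and 7.13 in P.

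Among the Hox genes, Hoxb1 differed by -3.12 ± 0.19 (adjusted p = 0.00771), from a median of 0.931 FPKM over libraries in position 1 to 30.4 in position 2. Its neighbour Hoxb2 differed by -2.68 ± 0.28 (adjusted p = 0.0288). Of 18 Hox and Cdx genes listed, 8 were tested, with a median of -2.62. Of these, 5 were lower and 0 higher in position 1, against 0.329% and 0.12% of all genes. Each of the 8 was lower in position 1 in 3 of 3 embryos, against 26.2% of all genes tested. Hoxb1 stood at 39.7 ± 27.1 against 252 ± 54.7 in P (position 2 minus P -3.13, adjusted p = 0.021). In position 1 Hoxb1 did not pass against A (1.34, adjusted p = 0.114), and embryo 2 was the highest in both positions.

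**Figure D2:**
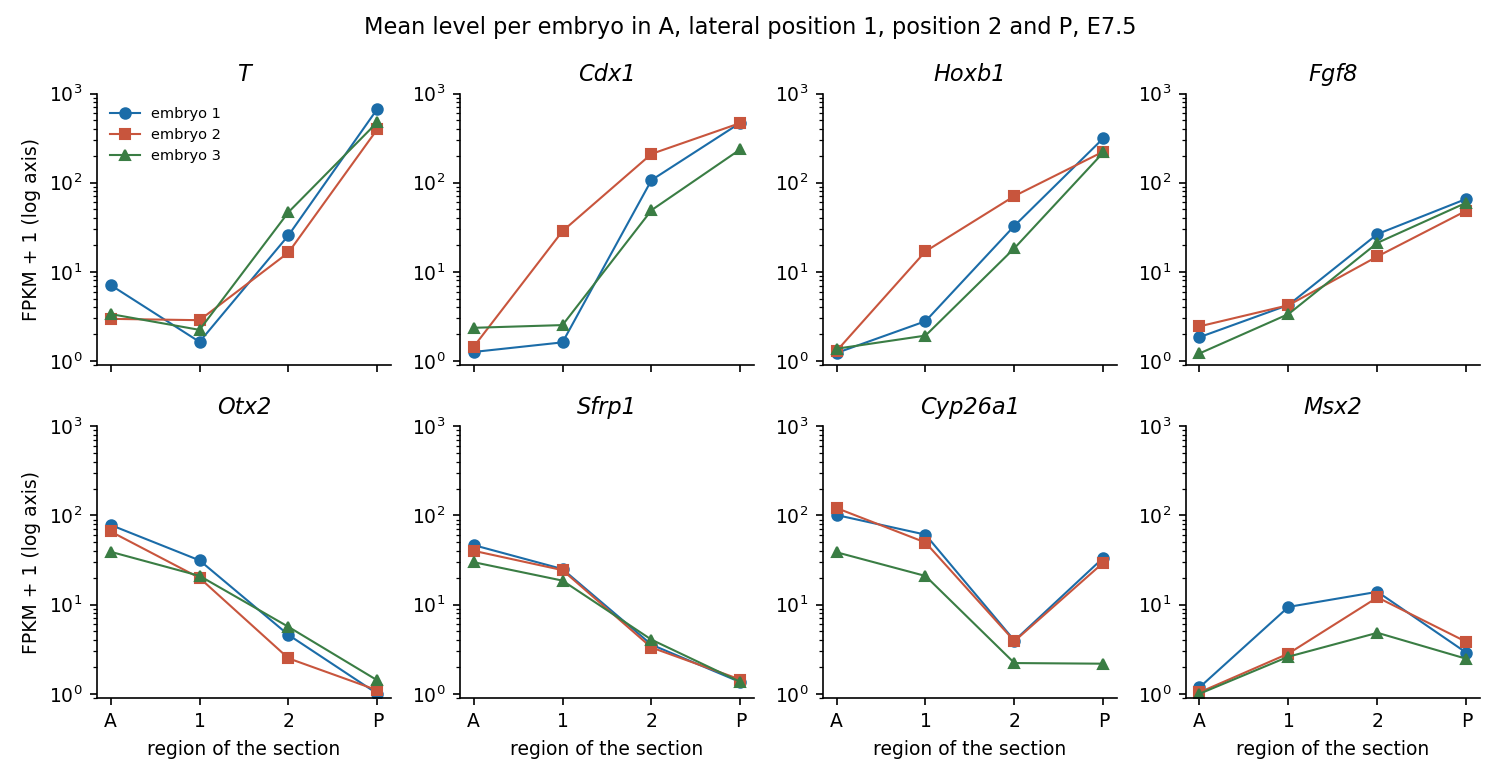
Mean FPKM + 1 of 8 genes (log axis) in A, position 1, position 2 and P of embryos 1, 2 and 3, 1 line per embryo. T, Cdx1 and Fgf8 rise from position 1 to P and Otx2 and Sfrp1 fall, while Cyp26a1 is lower in position 2 than in position 1 and Msx2 is highest in position 2 in every embryo.

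Other streak factors were higher in position 2 as well. Evx1, a homeobox gene of the posterior streak, had a median of 0 FPKM over libraries in position 1 and 2.75 in position 2 (difference -1.70 ± 0.15, adjusted p = 0.0178). Nkx1-2, which marks the streak border and the stem zone of the neural tube, was at 2.63 ± 2.21 and 11.2 ± 4.60 FPKM (-1.90 ± 0.20, adjusted p = 0.0305). Of 25 primitive streak genes 17 were tested, and 7 were lower and 0 higher in position 1, against 0.329% and 0.12% of all genes. The median of the list was -1.27 against -0.04 over all genes. Mixl1, a homeobox gene of the streak, did not pass. It was at 0.409 ± 0.199 FPKM in position 1, 3.19 ± 3.68 in position 2 and 146 ± 80.4 in P (-0.87 ± 0.22, adjusted p = 0.194), although it was lower in position 1 in 17 of 17 sections. Fst, which encodes the activin antagonist follistatin, had -1.54 ± 0.39 (adjusted p = 0.197), and its embryo values of -1.30, -0.56 and -2.76 were far apart. Eomes did not pass the filter, at 0.552 and 1.01 FPKM in positions 1 and 2.

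Ligands of both streak pathways were higher in position 2. Fgf8, the FGF ligand without which mesoderm does not migrate out of the streak, ran from 0 to 16.2 FPKM in position 1 (median 1.36) and from 0.404 to 65.7 in position 2 (median 17.9). Libraries overlapped, embryo means did not, and the difference was -2.55 ± 0.21 (adjusted p = 0.0177). The related ligand Fgf17 was at 0.824 ± 0.244 and 3.10 ± 0.474 FPKM (-1.08 ± 0.14, adjusted p = 0.0486). Wnt3a, the WNT ligand needed for trunk mesoderm, was at 0.123 ± 0.083 in position 1 and 0.152 ± 0.09 in A, against 5.67 ± 2.47 in position 2 and 56.3 ± 2.83 in P. Its difference was -1.99 ± 0.18 (adjusted p = 0.021). Wnt8a, an early posterior WNT ligand, had -1.35 ± 0.33 (adjusted p = 0.189) and Wnt3, the ligand that starts the streak, -1.01 ± 0.23 (adjusted p = 0.159). Wnt8a was above A in both positions, by 1.90 in position 1 (adjusted p = 0.00906) and 3.25 in position 2 (adjusted p = 0.00362).

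Feedback genes that these pathways are known to switch on were also higher in position 2. Notum, a secreted enzyme that inactivates WNT proteins, was at 1.51 ± 1.41 and 12.3 ± 4.65 FPKM (-2.44 ± 0.28, adjusted p = 0.04), with position 2 not past the threshold against P (-0.49, adjusted p = 0.0911; 0.00963 without section 4 of embryo 1). Axin2, an inhibitor of beta-catenin and a common WNT readout, differed by -1.17 ± 0.15 (adjusted p = 0.0486). It was also higher in position 1 than in A, by 1.06 (adjusted p = 0.0395). Of the FGF targets, the ETS factors Etv4 and Etv5 differed by -2.24 ± 0.19 (adjusted p = 0.0178) and -1.60 ± 0.16 (adjusted p = 0.0276), and the ERK phosphatase Dusp6 by -1.07 ± 0.13 (adjusted p = 0.0486). Of 25 WNT pathway genes tested, 4 were lower and 1 higher in position 1 (median -0.65), and of 15 FGF pathway genes 5 were lower and 1 higher (median -0.77). The 2 exceptions within these lists are Sfrp1 and Fgfr2. Fzd7 and Shisa2, described below, were also called higher in position 1 and belong to neither list. Over all genes tested, 0.329% were called lower and 0.12% higher.

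Further genes higher in position 2 lie outside these lists of signals and streak factors. Cdkn1a, which encodes the cell cycle inhibitor p21, was at 11.0 ± 6.39 and 35.4 ± 13.9 FPKM (-1.95 ± 0.19, adjusted p = 0.0248), and Ccnd2, the G1 cyclin D2, at 31.0 ± 14.3 and 68.0 ± 25.2 (-1.42 ± 0.18, adjusted p = 0.0486). These were the only 2 of 22 cell cycle genes to pass, against 0.449% of all genes, and the median of that list was -0.15. Grsf1, an RNA-binding protein, ran from 2.08 to 45.3 FPKM in position 1 and from 4.94 to 161 in position 2 (-2.17 ± 0.19, adjusted p = 0.0178). Zfp703, a zinc-finger repressor, differed by -2.69 ± 0.25 (adjusted p = 0.0215). Nefm, a neurofilament subunit, Rxrg, a retinoid X receptor, and Apln, the ligand of the apelin receptor, differed by -1.58, -1.43 and -1.13 (adjusted p = 0.0281, 0.0465 and 0.0486). The remaining calls in this direction were Psors1c2, Lxn, Tcea3, Pid1, Gm10664, S100a11 and Rai14, between -1.39 and -1.0.

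Otx2, the homeobox gene of forebrain and midbrain, led the genes higher in position 1 together with Sfrp1 and Cyp26a1. It ran from 0 to 69.7 FPKM in position 1 with a median of 23.1, and from 0 to 30.9 in position 2 with a median of 0.237. Embryo means did not overlap, at 30.4, 18.9 and 20.0 FPKM against 3.57, 1.5 and 4.63, and the difference was 2.62 ± 0.19 (adjusted p = 0.00934), with position 1 higher in 17 of 17 sections. A was higher still, at 60.2 ± 20.0 FPKM (position 1 minus A -1.75, adjusted p = 0.0156; 0.0574 without section 4 of embryo 1), and P was at 0.168 ± 0.216. Sfrp1, a secreted WNT antagonist, was at 21.7 ± 3.55 FPKM in position 1, 2.63 ± 0.377 in position 2, 37.9 ± 8.39 in A and 0.382 ± 0.051 in P. Its difference between the positions was 2.63 ± 0.18 (adjusted p = 0.00897). Otx2 and Sfrp1 are the 2 of 13 anterior neural genes tested that passed, against 0.449% of all genes. The median of that list was 0.43.

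Receptors of the WNT and FGF pathways were among the other calls. Fzd7, a frizzled receptor, was at 13.3 ± 4.18 and 4.46 ± 0.98 FPKM in positions 1 and 2 (1.32 ± 0.15, adjusted p = 0.043), and Fgfr2, an FGF receptor, at 9.94 ± 3.32 and 3.37 ± 1.62 (1.30 ± 0.17, adjusted p = 0.0486). Both were higher in position 1 in 17 of 17 sections. Fgfr2 was at 9.77 ± 3.28 in A, and position 1 did not pass against it (-0.10, adjusted p = 0.765), while P was at 0.401 ± 0.268. Shisa2, which holds back the maturation of these receptors, was higher in position 1 by 1.10 ± 0.14 (adjusted p = 0.0486). Sox9, a SOX factor of neural and border cells, was at 6.35 ± 2.80 and 1.84 ± 0.566 FPKM (1.19 ± 0.15, adjusted p = 0.0486). The remaining calls were Syt11, Lrrn1, Cryba1, Mxra8 and Slc6a13, between 1.01 and 1.27.

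Pou3f1, a POU factor of neural ectoderm, was at 10.0 ± 3.23 FPKM in position 1 and 4.06 ± 1.33 in position 2, and higher in position 1 in 17 of 17 sections. At 1.28 ± 0.20 it did not pass (adjusted p = 0.0824). Hesx1, a forebrain homeobox gene, had 0.97 ± 0.16 (adjusted p = 0.105). It was at 6.36 ± 3.36 FPKM in position 1 against 72.3 ± 37.4 in A (position 1 minus A -3.13, adjusted p = 8.94e-05). Irx5 and Irx3, linked homeobox genes of the neural plate, had 1.20 ± 0.18 (adjusted p = 0.0785) and 0.87 ± 0.16 (adjusted p = 0.117). In position 1 they were at 19.4 ± 5.28 and 22.2 ± 10.4 FPKM, and in A at 14.5 ± 5.14 and 21.4 ± 10.9. Neither passed against A (0.22, adjusted p = 0.511, and 0.04, adjusted p = 0.928). Tal2, Mfng, Galnt16, Eras, Pim2 and Calca lay between 1.17 and 1.70, with adjusted p-values from 0.0578 to 0.215. Sox2 differed by 0.29 ± 0.19 (adjusted p = 0.53) and fell to different sides in the embryos, at -0.14, 0.36 and 0.64.

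**Figure D3:**
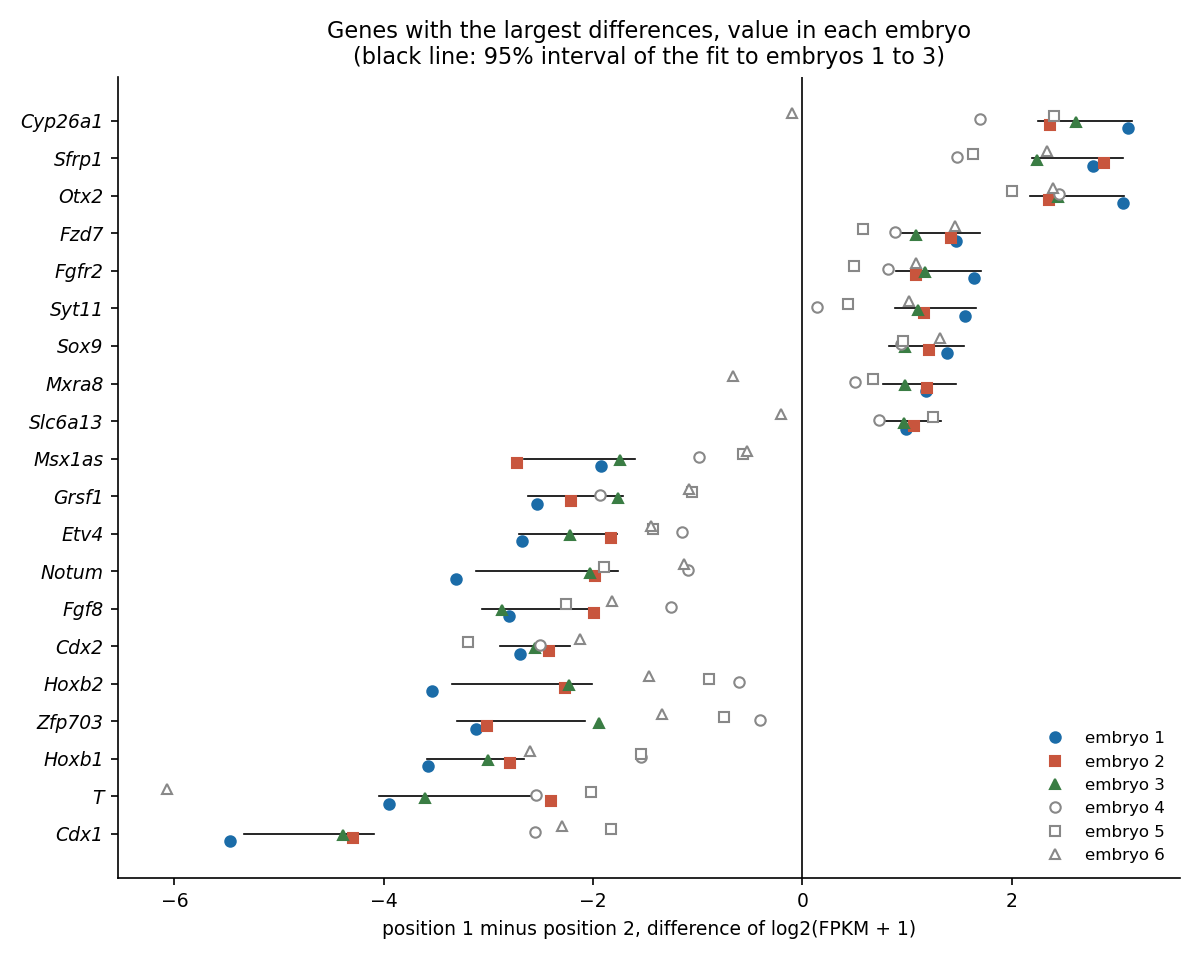
Position 1 minus position 2, as a difference of log2(FPKM + 1), in each of 6 embryos for 9 genes higher and 11 lower in position 1, chosen for their large differences; filled symbols are embryos 1 to 3, open symbols embryos 4 to 6, and black lines the 95% interval of the fit to embryos 1 to 3. Filled symbols lie on 1 side of 0 for every gene because the genes were chosen for that. Open symbols cross 0 for Cyp26a1, Mxra8 and Slc6a13 in embryo 6.

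Genes of retinoic acid metabolism were not ordered from A to P alike. Cyp26a1, the enzyme that breaks down retinoic acid, had 0 to 218 FPKM in position 1 with a median of 24.3, and 0 to 11.6 in position 2 with a median of 1.40. Its difference was 2.70 ± 0.18 (adjusted p = 0.00897), with position 1 higher in 14 of 17 sections and lower in 2. The level was 86.0 ± 43.0 FPKM in A and 20.8 ± 17.1 in P, so position 2, at 2.35 ± 0.988, had the lowest mean of the 4 regions. Against P, position 2 had -2.34 (adjusted p = 0.0526) and did not pass. Embryo 3 did not share that order, with 1.21 FPKM in position 2 and 1.17 in P, against 2.95 and 32.6 in embryo 1 and 2.89 and 28.6 in embryo 2. Aldh1a2, the enzyme that makes retinoic acid, was at 0.277 ± 0.086 FPKM in position 1, 3.73 ± 3.56 in position 2 and 49.8 ± 5.07 in P (-1.09 ± 0.27, adjusted p = 0.192).

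The 250 bases upstream of Cyp26a1, at chr19:37697558-37697807 of GRCm38.p6 on the + strand, are shown because retinoic acid itself is known to switch this gene on. Capitals mark AGTTCA or its reverse complement TGAACT, a hexamer bound by retinoic acid receptors.
Cyp26a1: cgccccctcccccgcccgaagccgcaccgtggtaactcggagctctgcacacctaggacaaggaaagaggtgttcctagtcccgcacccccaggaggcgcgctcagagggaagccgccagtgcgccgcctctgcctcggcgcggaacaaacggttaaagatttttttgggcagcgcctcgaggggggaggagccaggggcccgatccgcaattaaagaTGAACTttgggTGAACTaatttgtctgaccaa
It holds 2 matches, starting 32 and 21 bases upstream of the start. The letters occur in 11.8% of all windows, and in those of 7 of the 31 called genes with a window, namely Cyp26a1, Fgfr2, Otx2, Rxrg, S100a11, Slc6a13 and T. As above, the share counts windows and the 7 counts genes. Of 12 retinoic acid pathway genes tested, Cyp26a1 was the 1 that passed, against 0.449% of all genes, and the median of the list was -0.32.

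Msx2, Dlx5, Efnb1 and Slc35g2 were the 4 genes higher in position 2 than in A and than in P, past the threshold in both comparisons. More genes, 11, were lower in position 2 than in both. Without section 4 of embryo 1 the counts were 15 higher and 77 lower. With libraries rescaled to an equal sum they were 9 higher and 20 lower. Msx2, Dlx5, Efnb1 and Slc35g2 were chosen after their values were seen, and they are not members of 1 list. Msx2, a homeobox gene switched on by BMP, was at 0.072 ± 0.094 FPKM in A, 3.95 ± 3.88 in position 1, 9.27 ± 4.80 in position 2 and 2.06 ± 0.691 in P. It was higher in position 2 than in A by 2.12 (adjusted p = 0.0203) and than in P by 1.16 (adjusted p = 0.0417). Dlx5, a border homeobox gene, was at 7.82 ± 1.84 FPKM in position 2 against 1.49 ± 0.193 in A (1.62, adjusted p = 0.0218) and 1.5 ± 1.15 in P (1.65, adjusted p = 0.0104). Efnb1, an ephrin that guides cell sorting, was above both midline sides in position 2, by 2.47 over A (adjusted p = 0.0237) and 1.83 over P (adjusted p = 0.0261). In position 1 it was above them as well, by 1.70 (adjusted p = 0.0209) and 1.06 (adjusted p = 0.0222). Slc35g2, a member of the solute carrier family, was at 5.26 ± 1.14 FPKM in position 1 and 5.92 ± 1.75 in position 2. In position 2 it was above A by 1.37 (adjusted p = 0.0311) and above P by 1.06 (adjusted p = 0.0403), and in position 1 by 1.40 (adjusted p = 0.00751) and 1.09 (adjusted p = 0.00514). Between the positions none of the 4 passed. Msx2 had -0.97 ± 0.16 (adjusted p = 0.0953), Dlx5 -1.06 ± 0.32 (adjusted p = 0.27) and Efnb1 -0.77 ± 0.16 (adjusted p = 0.138).

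Msx1, a paralogue of Msx2, did pass, at -1.48 ± 0.19 (adjusted p = 0.0486), with 0.771 ± 0.825 FPKM in position 1, 6.92 ± 4.71 in position 2 and 4.68 ± 2.04 in P. In embryos 4 to 6 its difference was -0.24, and with all 6 embryos it did not pass (-0.86, adjusted p = 0.0767). Msx1as, transcribed antisense to Msx1, differed by -2.13 ± 0.22 (adjusted p = 0.0281). Without strand, reads from these overlapping genes cannot be told apart, so they may be 1 signal. Wnt6, a ligand of surface ectoderm, had -2.17 ± 0.37 (adjusted p = 0.105) and Tfap2c, a factor of surface ectoderm and trophoblast, -1.13 ± 0.19 (adjusted p = 0.106). Of 15 surface ectoderm genes tested, Msx1 alone was called, against 0.449% of all genes, and the list's median was -0.57.

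Few members of other lists passed. With 0.449% of all genes called, lists of this size are likely to hold no call, so those without 1 say little. None of 9 nascent and paraxial mesoderm genes passed, although Hes7, a clock gene of presomitic mesoderm, went from 0.404 ± 0.422 to 9.67 ± 11.5 FPKM (-1.90 ± 0.40, adjusted p = 0.144). Tbx6, a factor of paraxial mesoderm, was at 0.244 ± 0.183 in position 1 and 3.16 ± 2.61 in position 2, against 95.1 ± 9.85 in P (-0.95 ± 0.33, adjusted p = 0.319). None of 9 NODAL pathway genes (median 0.02), 18 epithelial genes (0.06), 13 mesenchymal genes (0.09) or 17 glycolysis genes (-0.04) passed. Otx2 was the 1 of 16 pluripotency genes to pass (median -0.03). Gbx2, which marks hindbrain and abuts the Otx2 domain, was at 29.3 ± 24.1 FPKM in position 1 and 57.4 ± 26.1 in position 2 (-1.36 ± 0.38, adjusted p = 0.237). It was far above A in both positions, by 2.41 (adjusted p = 0.00346) and 3.76 (adjusted p = 0.00362), and at 53.3 ± 11.3 in P, against which position 2 did not pass (-0.32, adjusted p = 0.417). Of 12 guidance and adhesion genes none passed. Flrt3, an adhesion protein, the semaphorin Sema6a and the receptor Epha1 had -1.50, -1.16 and -1.21 and lower values in position 1 in 17 of 17 sections (adjusted p = 0.0785, 0.106 and 0.115). Without section 4 of embryo 1, 11 genes described here as not past the threshold between the positions passed that comparison: Msx2, Tfap2c, Pou3f1, Irx3, Irx5, Tal2, Galnt16, Flrt3, Epha1, Sema6a and Cldn6, an epithelial tight junction gene (1.07 with all sections, adjusted p = 0.143).

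**Figure D4:**
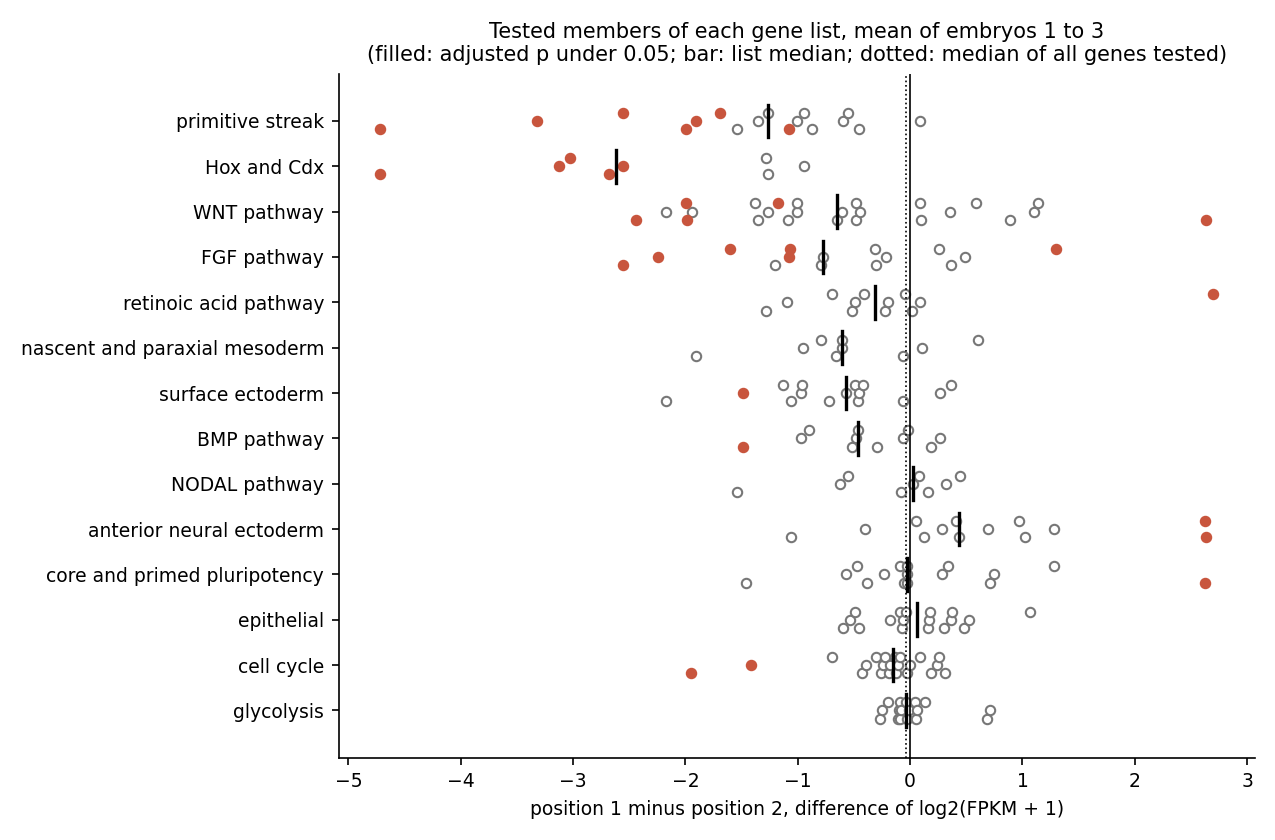
Difference of log2(FPKM + 1), position 1 minus position 2, for each tested member of 14 gene lists (filled, adjusted p under 0.05; bar, list median; dotted line, median of all 10027 genes at -0.04). Hox and Cdx genes and primitive streak genes lie furthest to the left, with medians of -2.62 and -1.27.

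Against the midline, position 1 differed from A in 70 genes (0.698%) and from P in 3668 (36.6%), while position 2 differed from A in 129 (1.29%) and from P in 1559 (15.5%). Each A or P value rests on 1 library per section, each lateral value on 2, and the 4 counts share libraries. Most calls were negative: 55 of 70 and 3180 of 3668 for position 1 against A and P, and 70 of 129 and 1371 of 1559 for position 2. The medians over all genes were also below 0, at -0.27 and -0.33 for position 1 and -0.24 and -0.29 for position 2. With libraries rescaled to an equal sum the counts against A were 47 for position 1 and 197 for position 2, and those against P 1521 and 1133. Without section 4 of embryo 1 the counts were 1349 and 399 against A and 4359 and 3860 against P, and with equal medians as well 370 and 434 against A and 3067 and 1567 against P. Without embryo 2 the counts against P were 712 and 152, without embryo 1 those against A 814 and 423 and that of position 2 against P 2688, and without embryo 3 those against A 1110 and 663. So the counts do not order the positions against A.

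Along the section axis, 40 of the 45 called genes had a larger mean difference in the proximal than in the distal sections (the middle one left out where an embryo had an odd number), against 47.6% of all genes tested. Section 4 of embryo 1, whose libraries hold few genes, is among the distal sections, and its part in this count was not tested. For Otx2 the difference was 1.87 in the distal and 3.23 in the proximal sections, for Cyp26a1 1.14 and 4.03, and for Cdx1 -4.13 and -5.30. No gene passed in the slope test by limma (0%), with a smallest adjusted p of 0.511 and 315 genes at an unadjusted p under 0.05, which does not show that the differences are even along the axis. Cyp26a1 had that smallest value, with a slope of 4.62 from the most distal to the most proximal section. Without embryo 1, 38 genes passed, without embryo 2, 2, and without section 4 of embryo 1, 3.

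**Figure D5:**
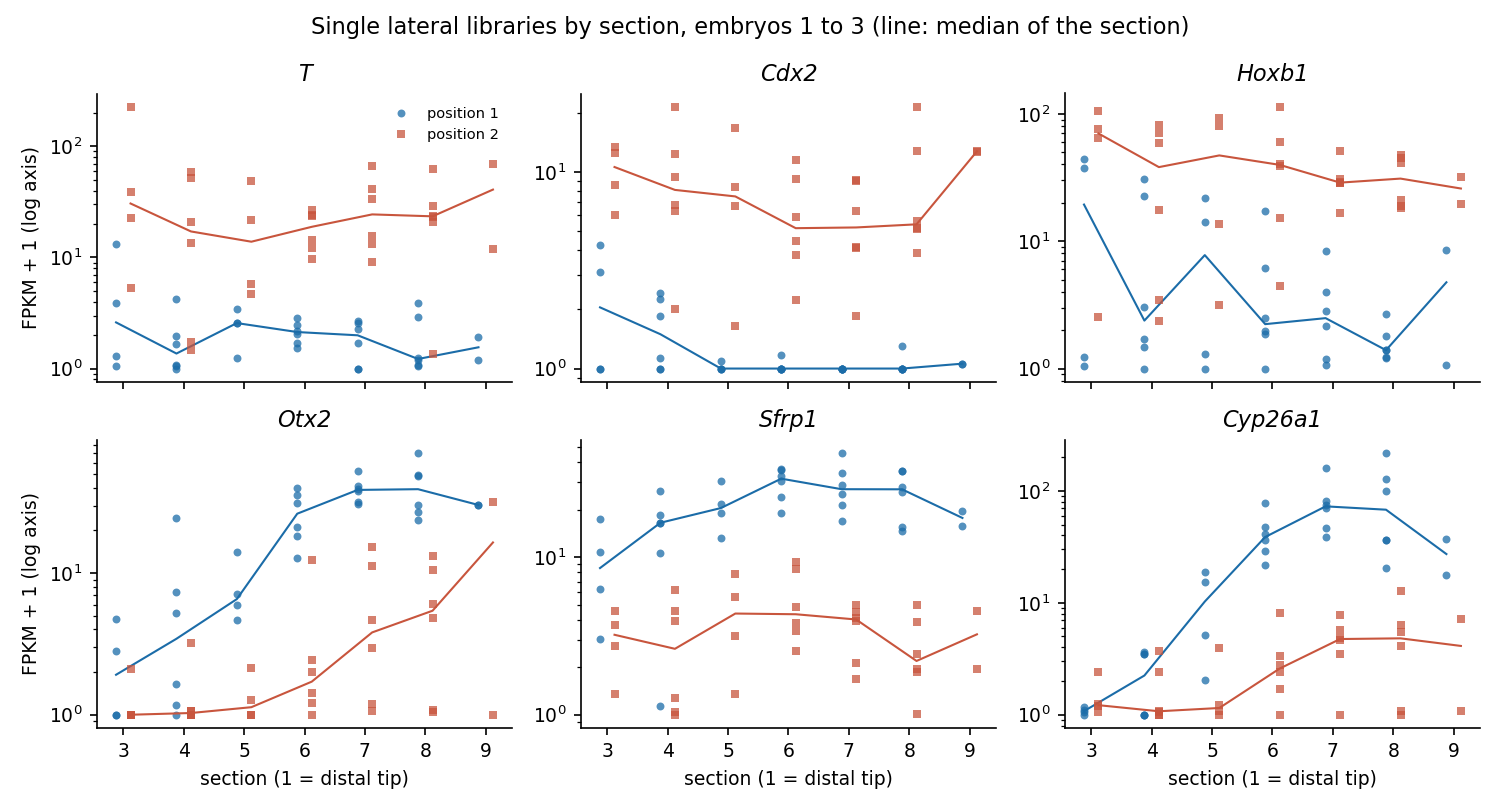
FPKM + 1 (log axis) of 6 genes in single lateral libraries of embryos 1 to 3 by section number, with position 1 as circles, position 2 as squares and lines for the median of a section. Otx2 and Cyp26a1 in position 1 have low medians in sections 3 and 4 and high ones from section 6, and section 9 comes from embryo 3 alone.

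The called genes were chosen on the mean of columns named L and R, and the values of each are given as a description. T differed by -3.32 in both L and R, and Cdx1 by -4.35 and -5.08. Otx2 had the widest gap, 3.51 ± 0.40 in L against 1.74 ± 0.21 in R, a difference of 1.77 ± 0.46 that did not pass (adjusted p = 0.583). No gene passed the test of the L against the R difference by limma (0%), with 761 at an unadjusted p under 0.05. Without embryo 1, 58 genes passed it, without embryo 2, 37, and without embryo 3, 3.

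Embryos 4, 5 and 6 gave the same contrast in 9 further sections, with 18 libraries of each position at 1.56 to 4.67 M reads. Their 36 lateral columns were also assigned by the digit alone. Of the 33 genes called lower in position 1 above, 33 had a negative mean there, 32 were negative in 3 of 3 embryos and 16 passed, against 14.2% of all genes negative in 3 of 3 and 0.349% called in that direction. Of the 12 called higher, 11 had a positive mean, 8 were positive in 3 of 3 and 4 passed, against 10.7% and 0.0898% of all genes. The median difference of the 33 was -1.70 in embryos 1 to 3 and -1.32 in embryos 4 to 6, and that of the 12 was 1.24 and 0.90. Cdx2 repeated closely, at -2.56 and -2.61 (adjusted p = 4.61e-04 in embryos 4 to 6), as did Otx2, at 2.62 and 2.28 (adjusted p = 4.61e-04). Cdx1 was smaller, at -2.22 (adjusted p = 4.61e-04). Cyp26a1 fell from 2.70 to 1.33 and did not pass there (adjusted p = 0.196), with 1.69, 2.40 and -0.096 in embryos 4, 5 and 6. T was at -2.54, -2.02 and -6.07 in embryos 4, 5 and 6 and did not pass there (adjusted p = 0.521). Cryba1, which encodes a crystallin, was the gene that changed sign, at 1.21 and -0.17.

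By themselves embryos 4 to 6 called 44 genes (0.439%), and all 6 embryos together called 200 (1.99%), 67 higher and 133 lower in position 1. The difference of nearness to A and P was above 0 in 6 of 6 embryos, with a mean of 0.0254 ± 0.00612 (SD, n = 6) and p = 0.03125 by the exact two-sided sign-flip test, the smallest it can give. It compares the positions with each other. Position 1 itself correlated less with A than with P in embryo 4 (0.889 and 0.894), where A was ahead in 1 of 3 sections. In embryos 5 and 6 its r was 0.941 and 0.940 with A, and 0.932 and 0.913 with P. Of the 45 genes, 41 passed with 6 embryos, and Msx1, Lxn (adjusted p = 0.098), Mxra8 (adjusted p = 0.186) and Cryba1 (adjusted p = 0.361) did not. The 6 include embryos 1 to 3, on which the 45 were called, so the 41 are no independent repeat. Embryos 4 to 6 alone called 20 of the 45. Genes that passed with 6 embryos but not with 3 included Wnt8a (-1.38, adjusted p = 0.00316), Fst (-2.26, adjusted p = 0.00194), Pou3f1 (1.21, adjusted p = 6.36e-04) and Hesx1 (0.92, adjusted p = 0.00474). Gbx2 passed as well, at -1.64 (adjusted p = 0.0133), and Cldn6 at 1.18 (adjusted p = 9.20e-04). Mixl1 did not (-0.80, adjusted p = 0.0811), nor did Msx2 (-0.64, adjusted p = 0.0744).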

How the data were processed

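The labels describe Geo-seq of laser-dissected cryosections of C57BL/6 embryos with Nextera XT libraries. The submitters' processing notes name mm10, TopHat2 2.0.8b and Cufflinks 2.1.1, and the authors deposited FPKM, 1 table per embryo. The annotation, strand setting and program options are not given in the sources used here. By their codes, 70 columns were assigned to a single sample and 86 to a group, and 171 of 327 E7.5 columns were not used. Separate embryos are the replicates.

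Genes with a mean of at least 1 FPKM over the 68 lateral libraries were tested, 10027 of 23361. Per embryo, section differences of log2(FPKM + 1) were averaged and fitted in limma 3.58.1 (R 4.3.3, empirical Bayes with trend and robust), with Benjamini-Hochberg adjustment and a threshold of 0.05. The design is paired within the embryo. Across genes, deviations of positions 1 and 2 correlated by 0.471 to 0.779 in the same embryo and by -0.494 to 0.0727 between embryos. Deviations over 3 embryos offset one another, which lowers the values between embryos, so these are no separate support for the pairing. Slopes ran on the section number scaled from 0 to 1. Depth was estimated in 2115 genes with 1 transcript. No 2 libraries were identical. The fits were tested on simulated data, where the slope test missed most planted differences and each fit made some calls that were not planted.

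For the text, called genes were ranked by difference and up to 12 taken in either direction, provided that all embryos had the same sign, the log2 difference reached 1 and the higher position 5 FPKM, clone-numbered genes excepted; where under 10 passed, up to 12 more that did not pass but held in at least 80% of sections; up to 4 members of each of 25 lists with the smallest p; and a fixed panel. Other called genes are named after their values were seen. Members and lists were chosen with earlier results of these data known. Some results are not reported here. Promoters are from RefSeq, GRCm38.p6, with 31 of 45 called genes matched. Tables were made in Python 3.11.15 (pandas 2.3.3, numpy 2.4.6) and plots with matplotlib 3.10.9.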

Additional observations from a re-analysis of the deposited data

Results flagged for a closer look

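Of 21 results examined for an embryo far from the other 5, 2 were marked, and chance marks about 1 in 20 groups. Mxra8 had a difference of -0.67 in embryo 6 against 0.50 to 1.19 in the other embryos, and Slc6a13 had -0.20 in embryo 6 against 0.73 to 1.25. In both, embryo 6 lay on the other side of 0. Embryo 6 has 1 lateral library with 4518 genes at 1 FPKM or more, in section 6, the fewest among embryos 4 to 6, and its part in these values was not tested.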

How the results depend on the processing

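Counts of genes past the threshold depended on the setting. Of 1690 values of 78 named genes under the alternatives, 1679 kept their direction, and 11 did not. That count is a description and no test of robustness. Several alternatives refit the same differences and cannot turn a sign, and many of the genes were chosen for having 1 sign in embryos 1 to 3. In embryos 4 to 6 alone, which share no library with these, 3 of the 78 genes were reversed. Position 1 against 2 called 45 genes. The count was 11 with a pseudocount of 0.1, 14 with 5, 0 of 22094 without a filter on low values (1671 at an unadjusted p under 0.05, limma), 12 of 5660 with a mean of at least 5 FPKM and 25 without trend and robust moderation. It was 1 with columns named L alone, 11 with R alone, 7 from the log2 of the mean FPKM over L and R, 0 in the distal sections (416 at an unadjusted p under 0.05) and 174 in the proximal sections. Leaving out 1 embryo gave 28 to 641 calls, namely 641 without embryo 1, 28 without embryo 2 and 222 without embryo 3, with 45, 22 and 45 of the 45 among them. Without the pairing (no replicate block) 39 genes passed, 20 of them among the 45. With an equal sum 43 passed, 33 of them among the 45.

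The following were chosen after seeing the data. Without section 4 of embryo 1 the count was 91, and 145 with equal medians as well; equal medians with that section were not run, since 1 library has a median of 0. It was 300 with 6 embryos without section 4 of embryo 1 and section 6 of embryo 6, and 122 in embryos 4 to 6 without that section 6. A planned fit of 6 embryos gave 200.

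The slope gave 0 calls, and 0 to 38 on leaving out an embryo, with 3 without section 4 of embryo 1. The left against right test gave 0, and 3 to 58 on leaving out an embryo. Position 1 against A gave 70, with 89 to 1110 on leaving out an embryo, 1349 without section 4 of embryo 1 and 370 with equal medians as well. Position 2 against A gave 129, with 120 to 663, 399 and 434, and 197 with an equal sum. Position 1 against P gave 3668, with 712 to 4534 on leaving out an embryo and 1521 with an equal sum. Position 2 against P gave 1559, with 152 to 2688, and 3860 without section 4 of embryo 1. Nearness of the positions to A and P was 0.0267, and 0.0415 by Spearman's rho, 0.251 over the 341 genes of the P minus A axis, 0.0296 without section 4 of embryo 1 and 0.0254 in 6 embryos, where the exact test passes.

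Values that turned were Cdh1 (-0.13 with 6 embryos, -0.42 in embryos 4 to 6, and -0.16 and -0.35 without the 2 sections that stood apart), Cryba1 (-0.17 in embryos 4 to 6, -0.17 without section 6), Dlx5 (0.11 and 0.20 likewise), Hesx1 (-0.073) and Mesp1 (0.22) in the distal sections, and Sox2 (-0.21) in R alone. For none of these was the cause tested. Depth limits low genes: a position 1 value of 0 in a library of about 20 cells does not show that a gene is off.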
